A study of Mus musculus with 6 samples.

Results

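The genes of store-operated calcium entry and of the IP3 receptors were followed in NMuMG cells: Orai1, Orai2, Orai3, Stim1, Stim2, Itpr1, Itpr2 and Itpr3. They were chosen because their products are targets or partners of 2APB (2-aminoethoxydiphenyl borate), and they are 8 of the 18512 rows of the deposited count table. NMuMG is a normal mouse mammary gland line that undergoes epithelial-mesenchymal transition when given TGF-β. Cells of all 3 groups were serum-starved for 4 h, and the first group then received the vehicle DMSO. The second received TGF-β (5 ng/ml), and in the third the same dose of TGF-β was combined with 2APB (50 uM). Each group had 2 replicate libraries, 6 in all, of poly(A)-selected RNA. Treatment lasted 24 h by one account in the study, whereas its methods place 2APB 24 h ahead of TGF-β. No library with 2APB and without TGF-β was analysed here, so each value of 2APB is a value in TGF-β-treated cells of 1 line.

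When a receptor activates phospholipase C, the enzyme cuts a membrane lipid into diacylglycerol and IP3, and IP3 opens the IP3 receptors, which are calcium channels of the endoplasmic reticulum. The STIM proteins sense the fall in stored calcium, gather where the reticulum touches the plasma membrane, and open the ORAI channels there, so that calcium enters and the store is refilled. 2APB inhibits IP3 receptors and store-operated entry through ORAI1, and it can open ORAI3 directly. In epithelial and cancer cells this entry has been tied to migration.

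The counts summed to between 71840570 and 79473182 in each library. All of them were even numbers, so reads may have been entered double and the number of reads behind a count may be smaller than printed. Of the epithelial markers, 5 of 5 were detected in every group, with summed normalized counts of 489700 to 521400 under DMSO, 697800 to 816800 under TGF-β and 1311000 to 1381000 under TGF-β+2APB. The keratins Krt8 and Krt18 made up most of these sums and rose with TGF-β (log2 fold changes 0.66 and 0.92, FDR = 0.00296 and 0.00122), while Epcam, of the same list, fell (-1.42, FDR = 0.0141). The adherens junction gene Cdh1 fell with TGF-β (log2 fold change -0.78, FDR = 0.0055), and both Cdh1 (-1.26) and Epcam (-0.97) were also lower with TGF-β+2APB than in DMSO (FDR = 0.000682 and 0.038). The immune markers summed to 225.3 to 371.7 under DMSO and 116.3 to 167.6 under TGF-β, and to 215.9 in TGF-β+2APB replicate 1 but 1745 in replicate 2, where Ptprc and Csf1r were high and the T cell gene Cd3e was at 1.97. Fabp4 was also highest in that library, at 88.8. The part of these transcripts in the results was not tested, and values without that library are given beside the called differences of the members and of the pathway lists between TGF-β+2APB and TGF-β.

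In the GRCm38 annotation the genes are all protein-coding and lie on 4 chromosomes. Chromosome 5 holds Orai1 (chr5:123015074-123030456), Orai2 (chr5:136147459-136170713) and Stim2 (chr5:53998499-54121057). Chromosome 7 holds Orai3 (chr7:127769815-127775150) and Stim1 (chr7:102267806-102437319). Itpr1 (chr6:108213096-108551109) and Itpr2 (chr6:146108299-146502223) lie on chromosome 6, and Itpr3 (chr17:27057304-27122223) on chromosome 17. The promoters are printed to show where the letters CAGAC, the short element that SMAD3 and SMAD4 bind, stand in genes that moved with TGF-β and in one that did not. The printed genes were thus picked by their TGF-β results, and a link of the letters to those results was not tested. RefSeq (GRCm38.p6) gave an entry for 7 of the 8 genes, with none for Itpr1. Each sequence is the 250 bases ahead of the transcription start, 5′ to 3′ on the strand of the gene, and capitals mark CAGAC, or GTCTG where the element lies on the opposite strand.
Orai1 (chr5:123014824-123015073, plus strand): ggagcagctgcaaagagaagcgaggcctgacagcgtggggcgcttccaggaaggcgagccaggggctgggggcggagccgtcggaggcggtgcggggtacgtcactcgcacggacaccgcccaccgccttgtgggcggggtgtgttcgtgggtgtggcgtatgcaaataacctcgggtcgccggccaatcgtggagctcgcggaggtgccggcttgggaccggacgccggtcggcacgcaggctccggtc
Orai3 (chr7:127769565-127769814, plus strand): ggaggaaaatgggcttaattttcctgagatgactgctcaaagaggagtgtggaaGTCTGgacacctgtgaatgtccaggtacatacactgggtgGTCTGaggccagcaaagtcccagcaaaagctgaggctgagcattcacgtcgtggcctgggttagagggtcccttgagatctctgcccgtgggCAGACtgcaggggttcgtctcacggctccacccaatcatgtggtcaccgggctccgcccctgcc
Itpr2 (chr6:146502224-146502473, minus strand): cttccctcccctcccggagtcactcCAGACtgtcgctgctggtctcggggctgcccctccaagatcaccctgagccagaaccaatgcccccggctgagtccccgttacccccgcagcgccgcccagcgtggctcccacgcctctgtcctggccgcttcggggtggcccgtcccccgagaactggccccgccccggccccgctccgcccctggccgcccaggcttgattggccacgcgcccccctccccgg
Itpr3 (chr17:27057054-27057303, plus strand): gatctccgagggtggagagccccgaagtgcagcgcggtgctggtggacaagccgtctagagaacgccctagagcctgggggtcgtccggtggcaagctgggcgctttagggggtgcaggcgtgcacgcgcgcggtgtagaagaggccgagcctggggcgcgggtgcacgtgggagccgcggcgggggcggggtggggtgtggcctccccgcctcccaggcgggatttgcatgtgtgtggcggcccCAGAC
The Orai3 window held CAGAC 3 times, with first bases at -196, -156 and -64 from the start. The Itpr2, Itpr3 and Stim2 windows held it once each, and those of Orai1, Orai2 and Stim1 did not hold it. Among 32851 mouse promoter windows of the same length, 42.2% held these letters on either strand, so a match is common and marks no bound site. The GC box GGGCGG was found in all 7 windows, from once in Orai2, Orai3 and Itpr3 to 8 times in Stim1, against 32.7% of all windows. CAGGTG, an E-box that SNAIL and ZEB factors bind, was found once each in Orai2 and Orai3 and in 17.2% of all windows. Neither GGCGCC (9.59% of all windows) nor the AP-1 letters TGANTCA (6.75%) occurred in these 7. All motifs were searched on both strands, and none of the matches overlapped. The GC content of the windows ran from 57.2% in Orai3 to 78.4% in Stim1, above the median of 52.4% over all windows.

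All 8 genes passed the filter on low counts. With TGF-β against DMSO, 5 of the 8 passed the test, 4 higher (Stim2, Itpr1, Itpr2, Itpr3) and 1 lower (Orai3), beside 41.5% of the 13355 genes tested (21.8% higher and 19.7% lower). Their median log2 fold change was 0.32 against -0.01 over all genes tested, and the median size of the change was 0.52 against 0.35. Between TGF-β+2APB and TGF-β, 4 of the 8 passed, Itpr1 higher and Stim1, Stim2 and Itpr2 lower, beside 17.5% of all genes (6.58% higher and 10.9% lower). The median log2 fold change here was -0.12 against -0.004, and the median size 0.25 against 0.23. With TGF-β+2APB against DMSO, 5 of the 8 passed, the 3 IP3 receptor genes higher and Orai3 and Stim1 lower, beside 52.7% of all genes (25.6% higher and 27.2% lower). These 3 comparisons share libraries and are not independent of each other. Values below are counts normalized to the mean library, FDR is the Benjamini-Hochberg value of edgeR's quasi-likelihood test over all 13355 genes, and a gene was called at 0.05 or less.

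**Figure D1:**
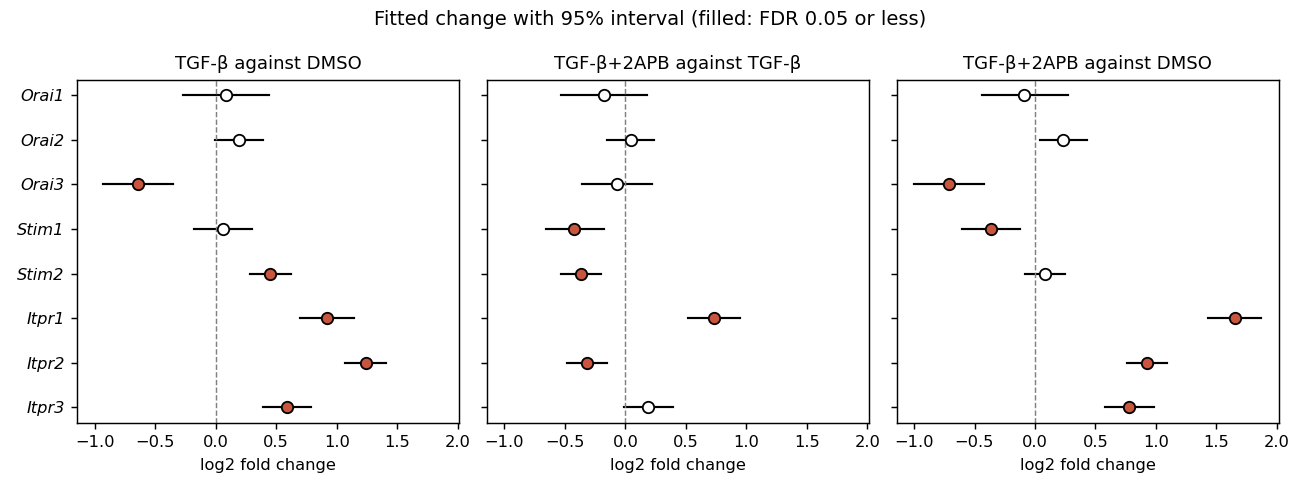
Fitted log2 fold changes (x axis) of the 8 genes (y axis) in the 3 comparisons, with bars for the 95% interval and filled points at an FDR of 0.05 or less. The 3 Itpr genes lie to the right of 0 under TGF-β, and with 2APB added Itpr1 (0.73) and Itpr2 (-0.31) lie on opposite sides of 0.

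Orai3 encodes the channel that 2APB can open, and it was the only ORAI gene whose level differed from DMSO in the test. Its normalized count was 2360 and 2235 under DMSO, 1629 and 1318 under TGF-β, and 1410 and 1394 under TGF-β+2APB. Both TGF-β-treated groups lay below DMSO in every library, and the TGF-β+2APB values lay between the TGF-β values. Orai3 fell with TGF-β by 35.8% (log2 fold change -0.64, SE 0.12, FDR = 0.00781), although without DMSO replicate 1 the FDR was 0.0661. With TGF-β+2APB it stood 39.0% below DMSO (log2 fold change -0.71, SE 0.12, FDR = 0.00386). 2APB added to TGF-β gave a log2 fold change of -0.07 (95% interval -0.36 to 0.22, FDR = 0.705) and was called only without TGF-β replicate 2 (-0.22). In bulk RNA, fewer cells of a kind and less RNA per cell cannot be told apart.

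Orai1 encodes the main pore of store-operated entry in many cells, and no difference was detectable for it. The counts were 1890 and 1774 under DMSO, 2181 and 1711 under TGF-β, and 1591 and 1858 under TGF-β+2APB, and the 3 groups overlapped. The log2 fold change was 0.09 under TGF-β (95% interval -0.27 to 0.44, FDR = 0.659) and -0.17 for 2APB on top of TGF-β (-0.53 to 0.18, FDR = 0.445). Among the 8 genes Orai1 had the widest intervals, and its TGF-β replicates lay farther apart than the group means. Orai2, a second pore subunit that can join ORAI1 in mixed channels, had 2346 and 2109 under DMSO, 2569 and 2521 under TGF-β and 2652 and 2592 under TGF-β+2APB. Every treated library lay above both DMSO libraries, but neither contrast with DMSO was called. The log2 fold change was 0.19 under TGF-β (FDR = 0.107) and 0.24 under TGF-β+2APB (SE 0.08, FDR = 0.0515). That last value was called in 4 of 9 other settings, with FDR from 0.0153 to 0.0915.

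Stim2, the sensor that responds to small falls of stored calcium, was higher with TGF-β and near the DMSO level when 2APB was present. It had 3231 and 3026 counts under DMSO, 4292 and 4252 under TGF-β and 3280 and 3358 under TGF-β+2APB. The TGF-β libraries lay above the other 4. Stim2 rose by 36.5% with TGF-β (log2 fold change 0.45, SE 0.067, FDR = 0.00397), a call lost without DMSO replicate 2 (FDR = 0.0583). It was 22.3% lower with TGF-β+2APB than with TGF-β (log2 fold change -0.36, SE 0.067, FDR = 0.0202), and against DMSO TGF-β+2APB gave 0.09 (95% interval -0.08 to 0.25, FDR = 0.333).

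Stim1, the sensor that gates ORAI channels after strong store depletion, did not differ detectably between TGF-β and DMSO. Its counts were 4559 and 4461 under DMSO, 5058 and 4342 under TGF-β, and 3362 and 3648 under TGF-β+2APB. Both TGF-β+2APB libraries lay below the other 4, while the TGF-β pair spanned the DMSO pair. The log2 fold change with TGF-β was 0.06 (95% interval -0.18 to 0.30, FDR = 0.656). Stim1 was 25.4% lower with TGF-β+2APB than with TGF-β (log2 fold change -0.42, SE 0.097, FDR = 0.0374) and 22.3% lower than in DMSO (-0.36, SE 0.097, FDR = 0.0234). The calls of Stim1 and Stim2 against TGF-β did not hold when only the 4 libraries compared were fitted (FDR = 0.105 and 0.0761), nor without TGF-β+2APB replicate 2 (log2 fold changes -0.49 and -0.38, FDR = 0.117 and 0.122). They were also lost without TGF-β+2APB replicate 1 (FDR = 0.202 and 0.138) and without either DMSO library (0.11 for Stim1 in both cases, 0.0777 and 0.0782 for Stim2). The Stim1 call against DMSO was lost without any 1 of the DMSO or TGF-β+2APB libraries, with FDR up to 0.159.

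**Figure D2:**
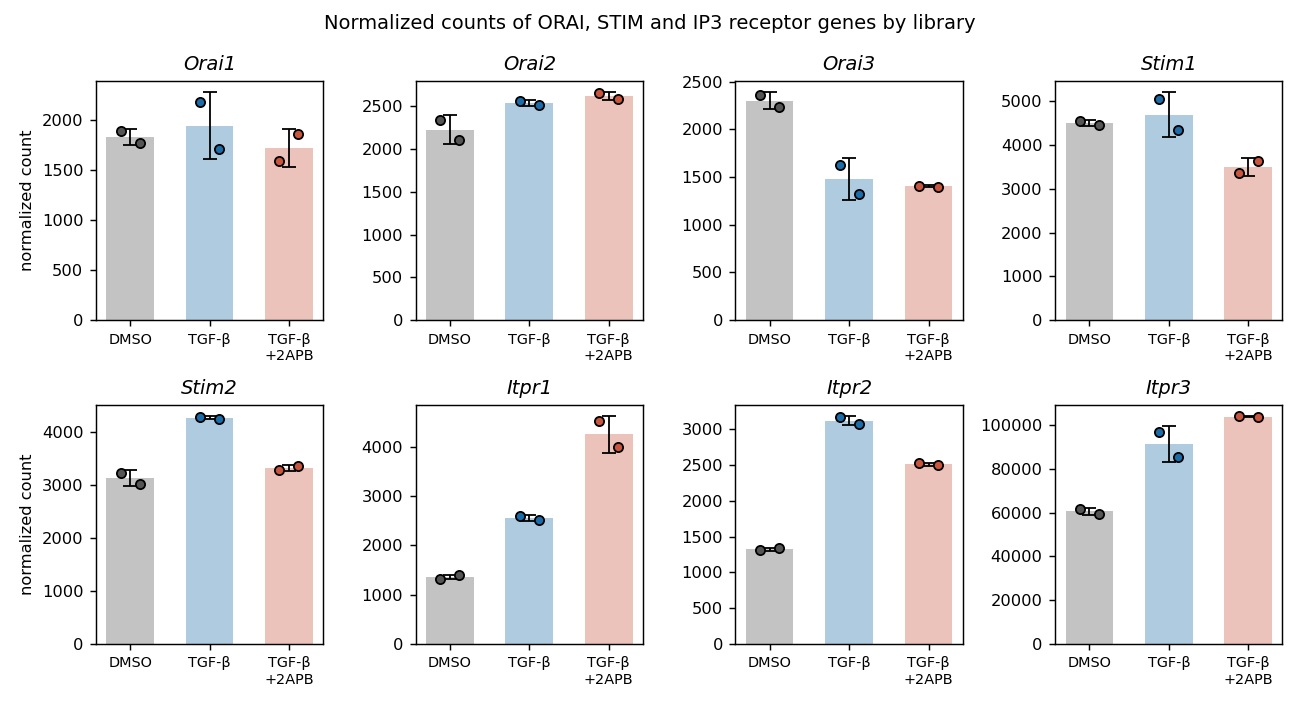
Normalized count (y axis, from 0, a separate scale for each gene) of each of the 8 genes in DMSO, TGF-β and TGF-β+2APB. Points are single libraries, bars the mean of 2 and error bars the SD. Orai3 is lower in both treated groups, Stim2 is highest with TGF-β alone, and Itpr1 is highest with TGF-β+2APB (4517 and 3990).

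Each of the 3 IP3 receptor genes rose with TGF-β, and 2APB on top of TGF-β was followed by different values in each. Itpr2, the subtype most sensitive to IP3, had 1308 and 1335 counts under DMSO, 3167 and 3075 under TGF-β, and 2524 and 2495 under TGF-β+2APB. The 3 groups did not overlap, and the order was TGF-β, TGF-β+2APB, DMSO. Itpr2 had the largest TGF-β response of the 8 genes, 2.36-fold (log2 fold change 1.24, SE 0.068, FDR = 0.000139), which ranked 1963 by size among the 13355 genes. With 2APB added it was 19.6% lower than with TGF-β (log2 fold change -0.31, SE 0.067, FDR = 0.0301), and it was still 1.9-fold above DMSO (log2 0.93, SE 0.068, FDR = 0.000204). The difference between TGF-β+2APB and TGF-β was not called with only those 4 libraries (FDR = 0.107), without TGF-β+2APB replicate 1 or 2 (0.182 and 0.212) or without either DMSO library (0.112 in both cases).

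Itpr1, the subtype best known from neurons, rose with TGF-β and rose again with 2APB. The counts were 1322 and 1389 under DMSO, 2604 and 2521 under TGF-β, and 4517 and 3990 under TGF-β+2APB. The groups did not overlap and stood in that order. Itpr1 rose 1.89-fold with TGF-β (log2 fold change 0.92, SE 0.087, FDR = 0.000831) and a further 1.66-fold with 2APB (0.73, SE 0.086, FDR = 0.00687), and it reached 3.14-fold above DMSO (1.65, SE 0.089, FDR = 7.65e-05). Of the 4 genes called between TGF-β+2APB and TGF-β, Itpr1 alone was called in each of the 9 other settings and with each library left out. Without TGF-β+2APB replicate 2, the log2 fold change was 0.82 (FDR = 0.0195).

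Itpr3, the subtype typical of epithelial and secretory cells, was by far the most abundant. It had 61600 and 59510 counts under DMSO, 96940 and 85350 under TGF-β, and 104000 and 103600 under TGF-β+2APB. All treated libraries lay above both DMSO libraries, and both TGF-β+2APB libraries lay above the TGF-β pair. Itpr3 rose 1.51-fold with TGF-β (log2 fold change 0.59, SE 0.08, FDR = 0.00283) and stood 1.71-fold above DMSO with TGF-β+2APB (0.78, SE 0.08, FDR = 0.000682). The step between TGF-β and TGF-β+2APB was 0.19 on the log2 scale (95% interval -0.01 to 0.39, FDR = 0.167) and was called only without TGF-β replicate 1. Without TGF-β+2APB replicate 2, the differences of the IP3 receptor genes and of Orai3 from DMSO were still called, with log2 fold changes of 1.76 for Itpr1, 0.80 for Itpr3 and -0.68 for Orai3 (FDR = 0.000347, 0.00671 and 0.0338). An antisense gene, Itpr3os, covers 2.583% of the Itpr3 exons, and the strand setting of the counting is not given in the sources used here.

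Counted by replicates alone, 6 of the 8 genes did not overlap between TGF-β and DMSO, beside 72.5% of all genes tested. The same number did not overlap between TGF-β+2APB and TGF-β (58.0% of all genes), and 7 did not overlap between TGF-β+2APB and DMSO (86.0%). With 2 libraries a group, the smallest two-sided exact permutation p for a single value is 0.333, so levels, shares and ratios are given below without a test.

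To compare the genes with each other, normalized counts were divided by the length of the longest coding transcript, from 1875 bases for Orai1 to 11679 for Itpr2. In DMSO, Itpr3 had 6736 ± 164 normalized counts per kb (SD, n = 2), at percentile 96.1 of the 17551 rows with a length. Orai3 (1073 ± 41.0), Stim1 (1034 ± 15.6) and Orai1 (977.0 ± 43.8) followed. The Orai3 and Stim1 libraries overlapped, while both Orai1 libraries lay below those of Orai3 and Stim1. Stim2 had 634.0 ± 29.3 and Orai2 558.3 ± 42.0 per kb, while Itpr1 (137.3 ± 4.81) and Itpr2 (113.2 ± 1.63) lay lowest, at percentiles 44.6 and 43.2. The order depended on the length used. With coding length alone, Orai2 (2813 per kb) stood above Orai3 (2641), Orai1 (2009) and Stim1 (1896) in DMSO, and with the union of all annotated exons Stim1 (434.9) stood below Stim2 (609.4). With TGF-β the order changed. Stim1 (1078 ± 116) and Orai1 (1038 ± 177) were not separated by their spread, Stim2 reached 865.8 ± 5.73, and Orai3 (688.2 ± 103) fell beside Orai2 (637.8 ± 8.56). Itpr2 (267.2 ± 5.59) and Itpr1 (259.6 ± 5.94) did not then differ beyond their spread, and with TGF-β+2APB Itpr1 (431.0 ± 37.7) stood above Itpr2 (214.8 ± 1.77). Itpr3 reached 11540 ± 35.4 per kb under TGF-β+2APB, at percentile 98.1.

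The makeup of the ORAI family differed between DMSO and both treated groups. Orai3 took 41.15% ± 0.424 of the ORAI sum per kb in DMSO, 29.06% ± 0.799 under TGF-β and 29.37% ± 1.35 under TGF-β+2APB. The ratio of Orai1 to Orai3 was 0.915 and 0.906 under DMSO, 1.53 and 1.48 under TGF-β, and 1.29 and 1.52 under TGF-β+2APB. Orai3 was thus ahead of Orai1 in both DMSO libraries and behind it in the other 4. The Orai2 share was 21.39% in DMSO, 27.16% with TGF-β and 29.48% with TGF-β+2APB. Which gene led in DMSO depended on the length used, since with coding length alone Orai2 took 37.67% and Orai3 35.4%, but the Orai3 share was lower in both treated groups with that length too (23.99% and 23.66%). The ORAI sum was 2698 and 2519 per kb under DMSO, 2568 and 2160 under TGF-β, and 2172 and 2292 under TGF-β+2APB.

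The STIM sum was highest with TGF-β (2030 and 1857 per kb), lower in DMSO (1700 and 1636) and lowest with TGF-β+2APB (1436 and 1517). Stim1 made up 61.99% of it in DMSO, 55.37% with TGF-β and 54.41% with TGF-β+2APB. The ratio of Stim1 to Stim2 was 1.6 and 1.67 under DMSO and between 1.16 and 1.33 in the 4 other libraries. With the union of all annotated exons as the length, which is longer for Stim1, the Stim1 share was 41.65% in DMSO and 35.2% with TGF-β, so the order of the pair turned while the lower share with TGF-β did not. The ORAI sum was 1.59 and 1.54 times the STIM sum in DMSO, 1.27 and 1.16 times under TGF-β, and 1.51 times in both TGF-β+2APB libraries. With coding length this ratio was 2.32 and 2.23, 1.87 and 1.77, and 2.34 and 2.29 in those groups. With the union of exons it was 2.16 and 2.12, 1.61 and 1.42, and 1.86 and 1.88. The ratio was thus lowest with TGF-β under each length. TGF-β+2APB stayed below DMSO with the transcript length and with the union of exons, but not with coding length.

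Of the IP3 receptor sum, Itpr3 made up 96.42% in DMSO, 95.04% with TGF-β and 94.70% with TGF-β+2APB. The sum was 7098 and 6875 per kb under DMSO, 11320 and 10010 under TGF-β, and 12240 and 12140 under TGF-β+2APB. Relative to the ORAI sum it was 2.63 and 2.73 under DMSO, 4.41 and 4.63 under TGF-β, and 5.64 and 5.3 under TGF-β+2APB, and the 3 groups did not overlap. With coding length these ratios were 1.03 and 1.08, 1.71 and 1.73, and 2.06 and 1.99, in the same order of groups. Within the minor subtypes, the ratio of Itpr1 to Itpr2 was 1.2 and 1.23 under DMSO, 0.973 and 0.97 under TGF-β, and 2.12 and 1.89 under TGF-β+2APB. With coding length the DMSO ratios were 0.993 and 1.02, and with the union of exons 0.817 and 0.841, so which of the pair led in DMSO is not settled, while the ratio was lowest with TGF-β and highest with TGF-β+2APB (1.29 to 1.76) under both lengths. Itpr3 exceeded Itpr1 51.2 and 47.1 times under DMSO, and 25.3 and 28.5 times under TGF-β+2APB.

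**Figure D3:**
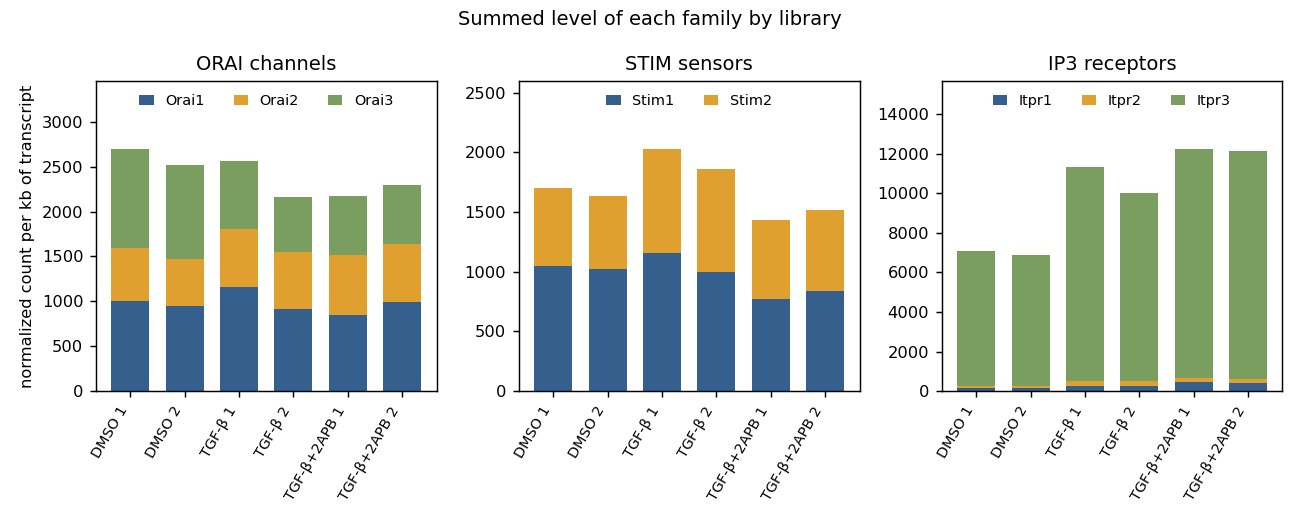
Summed normalized counts per kb of transcript (y axis, from 0, a separate scale for each family) in each of the 6 libraries (x axis), with colours for the genes. The IP3 receptor sum, nearly all Itpr3, runs from 6875 under DMSO to 12240 under TGF-β+2APB, and the Orai3 part of the ORAI sum is smaller in the 4 treated libraries.

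Other genes of the pathway were counted in 5 lists, of 68 genes in all, ordered from the regulators of STIM and ORAI to the enzymes that make and remove IP3. Of the STIM and ORAI regulators, 18 of 20 could be tested, and 9 were higher and 1 lower with TGF-β (55.6% called, beside 41.5% of all genes). Cav1, the caveolin that holds TRPC1 and ORAI1 in membrane domains, had 3064 and 3076 counts under DMSO, 11630 and 12170 under TGF-β and 7502 and 7788 under TGF-β+2APB. It rose 3.88-fold with TGF-β (SE 0.072 on the log2 scale, FDR = 5.25e-05) and was 35.8% lower with 2APB added (log2 fold change -0.64, FDR = 0.00582). Gramd2, which helps to set contacts between reticulum and plasma membrane, rose with TGF-β (log2 fold change 1.59, SE 0.34, FDR = 0.0137), and the calmodulin gene Calm3 fell (-0.75, SE 0.11, FDR = 0.0038). Calm3 shares sequence with near-identical genes, so its value is uncertain where the counting split reads. With 2APB added, 3 of the 18 were lower and 0 higher (16.7% called, beside 17.5% of all genes). These were Cav1, Tmem178 and Esyt1, a reticulum tether outside the naming rule (-0.43, FDR = 0.0351). Tmem178, an inhibitor of store-operated entry, went from 40.9 and 43.6 counts under TGF-β to 3.96 and 9.87 under TGF-β+2APB. It is counted among the falls but passed the filter on low counts only through DMSO and TGF-β. Without TGF-β+2APB replicate 2, the log2 fold changes were -0.67 for Cav1, -3.38 for Tmem178 and -0.51 for Esyt1, and the Esyt1 call was lost. With TGF-β+2APB against DMSO, 6 were higher and 4 lower, 55.6% beside 52.7% of all genes.

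The phospholipase C genes, whose products make IP3, were tested in 9 of 13 cases, and 2 were higher and 2 lower with TGF-β (44.4% called, beside 41.5% of all genes). With TGF-β, Plcg2 (log2 fold change 1.09, SE 0.13, FDR = 0.00199) and Plcb3 (0.73, SE 0.079, FDR = 0.00123) rose, and Plcb1 (-1.44, SE 0.23, FDR = 0.00519) and Plcd1 (-1.39, SE 0.43, FDR = 0.0469) fell. Plcd1 lay near the filter on low counts, at 43.3 and 68.2 under DMSO and 15.6 and 27.0 under TGF-β. With 2APB added, 3 fell and 0 rose (33.3% called, beside 17.5%). Plcb1, activated by Gq-coupled receptors, had 560.5 and 595.3 counts under DMSO, 175.4 and 251.2 under TGF-β, and 41.6 and 53.3 under TGF-β+2APB, a fall of 4.48-fold on adding 2APB (log2 fold change -2.17, SE 0.25, FDR = 0.00658). Plce1, activated by Ras, had 4586 and 3866 under TGF-β and 1428 and 2162 under TGF-β+2APB (log2 fold change -1.24, SE 0.21, FDR = 0.0161). Plch1 was the third to fall, named after its values were seen (-1.01, SE 0.067, FDR = 0.00305). Without TGF-β+2APB replicate 2 the 3 falls were still called, at -2.35, -1.57 and -1.05 for Plcb1, Plce1 and Plch1 (FDR = 0.0142, 0.0096 and 0.01). Against DMSO, TGF-β+2APB gave 2 higher and 4 lower, 66.7% beside 52.7% of all genes. Plcb2, an isozyme of blood cells, was at 0 in TGF-β+2APB replicate 1 and at 130.3 in replicate 2, the library with the high immune markers, and was not called.

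Genes of IP3 metabolism were called in 4 of 8 tested (of 9) with TGF-β, 2 in each direction, beside 41.5% of all genes. Inpp5a, the phosphatase that removes the signal by dephosphorylating IP3, had 2102 and 2007 counts under DMSO, 4722 and 4192 under TGF-β and 5200 and 4793 under TGF-β+2APB. It rose 2.17-fold with TGF-β (log2 fold change 1.12, SE 0.09, FDR = 0.000473). The inositol kinase Ipmk rose as well (0.43, FDR = 0.00582), while the phosphatases Inpp1 (-1.19, SE 0.24, FDR = 0.0107) and Impa1 (-0.52, SE 0.074, FDR = 0.00338), which recycle inositol, fell. Itpkb, a kinase that turns IP3 into IP4, was the only gene of this list called on adding 2APB (12.5%, beside 17.5%). Its counts were 3083 and 2683 under TGF-β and 5396 and 4542 under TGF-β+2APB (log2 fold change 0.79, SE 0.11, FDR = 0.011). Both TGF-β+2APB values lay above the 4 others, which ran from 2683 to 3083, and without TGF-β+2APB replicate 2 the log2 fold change was 0.90 (FDR = 0.0206). Against DMSO, TGF-β+2APB gave 3 higher and 3 lower of the 8, beside 52.7% of all genes called.

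Of the IP3 receptor partners, 20 of 23 were tested, and 10 were higher and 4 lower with TGF-β (70.0% called, beside 41.5%). Bok, a BCL2 family protein that binds IP3 receptors, went from 743.4 and 826.9 counts under DMSO to 2501 and 2238 under TGF-β and 3368 and 2977 under TGF-β+2APB. It rose with TGF-β (log2 fold change 1.59, SE 0.11, FDR = 0.000283) and again on adding 2APB (0.42, SE 0.11, FDR = 0.0487). The scaffold gene Homer1 rose with TGF-β (1.16, SE 0.28, FDR = 0.0204), while Mrvi1, a receptor-bound target of cGMP kinase, is counted among the falls but passed the filter on low counts only through DMSO, at 90.5 and 59.9 against 19.5 and 8.30 under TGF-β and 7.92 and 13.8 under TGF-β+2APB. Ahcyl2, a relative of the IP3-competing protein AHCYL1, fell with TGF-β (-0.71, SE 0.067, FDR = 0.000807). The other falls, Ssfa2 (-0.54) and Erlin2 (-0.38), lie outside the naming rule. On adding 2APB, 2 were higher, Bok and Itpripl2 (0.35, SE 0.065, FDR = 0.0207), and 4 were lower, beside 17.5% of all genes. The largest of these falls were in the survival gene Bcl2l1 (-0.76, SE 0.15, FDR = 0.0255) and in Erlin2, part of the complex that removes activated IP3 receptors (-0.63, SE 0.093, FDR = 0.0118), followed by Ssfa2 (-0.33) and Ahcyl2 (-0.27). Without TGF-β+2APB replicate 2, the calls of these genes other than Bcl2l1 were lost, while the directions stayed the same. The log2 fold changes were then 0.50 for Bok, 0.35 for Itpripl2, -0.93 for Bcl2l1 and -0.68 for Erlin2. Those of Ssfa2 and Ahcyl2 were -0.40 and -0.30. With TGF-β+2APB against DMSO, 8 were higher and 7 lower of the 20, beside 52.7% of all genes called. Of the ryanodine receptors, the other release channels of the reticulum, only Ryr1 could be tested. It had 3.93 and 12.4 counts under DMSO, 40.9 and 51.9 under TGF-β, and 154.5 and 159.9 under TGF-β+2APB. Ryr1 passed the filter on low counts only through the treated libraries. Its log2 fold change of 2.50 between TGF-β and DMSO is therefore given without a test. On adding 2APB the value was 1.76 (SE 0.46, FDR = 0.0528), not called.

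**Figure D4:**
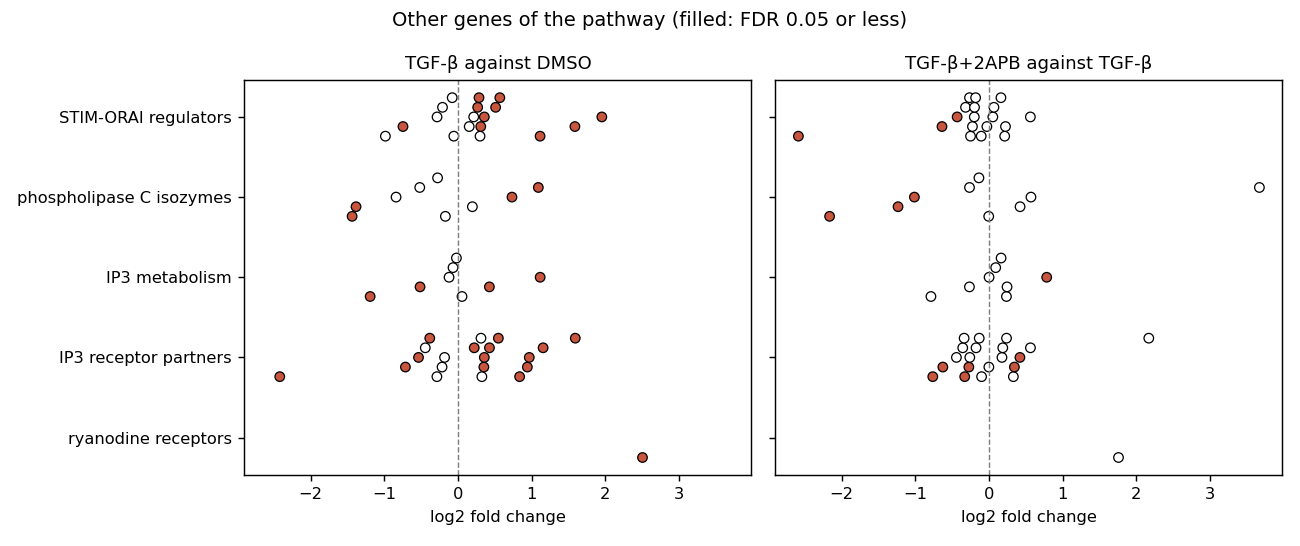
Fitted log2 fold changes (x axis) of the tested genes of the 5 pathway lists (y axis), each point a gene, filled at an FDR of 0.05 or less; vertical offsets only separate points. With TGF-β the filled points of the STIM and ORAI regulators lie right of 0 except Calm3 (-0.75), and on adding 2APB the filled phospholipase C points, led by Plcb1 (-2.17), lie left of 0.

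The genes whose log2 normalized counts ran most like each member over the 6 libraries were found among 12427 genes, as a description. The libraries form 3 groups, so a high Pearson r mainly records a like order of group means. Itpr1 was followed most closely by Txnrd3 and Pde4dip (r = 0.9996 each), and 1114 genes had an r above 0.95 with it. Itpr3 went with Ntmt1 (0.9998) and Ncs1 (0.9995), with 1473 genes above 0.95, and Itpr2 with Khdrbs3 (0.9991) and Nde1 (0.9989), with 622. Orai3 went with Cideb (0.9993) and Sdf2 (0.9992), with 930 genes above 0.95. For the other 4 genes the number above 0.95 was smaller. Stim2 went with Bmp2 (0.9944) and Leprot (0.9942), with 98 genes above 0.95, and Stim1 with Sec14l1 and Upp1 (0.9962 each), with 167. Orai2 went with Cngb1 (0.9925) and Mamdc2 (0.9917), with 94 genes, and Orai1, which had no called difference, with Anapc11 (0.9927) and Slc4a2 (0.9817), with 23. Pearson r takes no account of the size of a change. With TGF-β the log2 fold change was 3.67 for Cngb1 (SE 0.94), 2.425 for Mamdc2 (SE 0.68) and 0.19 for Orai2. The Orai1 groups overlapped, so its r records single libraries more than an order of group means.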

How the data were processed

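RNA of NMuMG cells from 3 groups of 2 replicates was measured by 50 bp single-end sequencing of oligo-dT selected RNA. According to the submitters' processing notes the tools were FastQC 0.11.2, TopHat2 2.0.13 and DESeq2 1.6.1. The authors counted reads per gene with featureCounts and deposited raw counts, which were not scaled between libraries. Those notes name the mouse build mm10, whereas the methods name hg19, and the symbols are those of mouse genes. The annotation, strand setting and handling of reads with several alignments are not given in the sources used here. All values of the 18512 rows were even, 25 names had become dates and 2 names occurred more than once. None of these rows is named here.

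Counts were fitted in R 4.3.3 with edgeR 4.0.16, with TMM factors from 0.9717 to 1.03, a filter that kept the 13355 genes whose normalized counts averaged 20 or more, 1 quasi-likelihood model of the 3 groups, and Benjamini-Hochberg FDR over all genes tested. The biological coefficient of variation was 17.4%. The standard error of a log2 fold change was taken as its size over the root of F, and 95% intervals use the t distribution of the fit. Reads are not independent molecules, so counts carry more error than their size alone gives. Positions and lengths came from a GRCm38 annotation (GENCODE), and promoters from RefSeq GRCm38.p6. Python 3.11.15, pandas 2.3.3 and matplotlib 3.10.9 made tables and plots.

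The members and lists were chosen with earlier results of these data known. Named genes are the 8 members, the 2 largest called rises and falls of each list in TGF-β against DMSO and in TGF-β+2APB against TGF-β, the 2 genes most like each member (log2 CPM, prior count 2, without date-like, Rik, Gm, LOC or Mir names) and cell type markers, of which some are not reported here. Alternatives were DESeq2 1.42.0, RLE and library-size scaling, no filter, at least 10 counts in every library, only the 4 libraries compared, the replicate number as a block, halved counts, a crossed block added after the data were seen, other gene lengths (the exon union, and ratios by length, added then too), and each library left out.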

Additional observations from a re-analysis of the deposited data

How the results depend on the processing

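Of 360 values of the 8 genes over the alternatives, 321 kept their direction and their side of the threshold, 25 lost the call, 8 gained it and 6 turned, all 6 in differences that were not called. With TGF-β against DMSO, 5 of the 5 called genes were called in each of 9 alternatives and 3 (the Itpr genes) also with each library left out. For TGF-β+2APB against TGF-β these were 1 of 4 (Itpr1) and 1, and against DMSO 5 of 5 and 4. The Stim1 difference from TGF-β was also lost without the filter on low counts (FDR = 0.051). For TGF-β+2APB against TGF-β, DESeq2 called 3696 genes, with 8 STIM and ORAI regulators, 4 genes of IP3 metabolism, 10 receptor partners and 1 ryanodine receptor, and 7 phospholipase C genes with TGF-β. Only the 4 libraries compared gave 860 genes and 1 member. The differences between replicates 1 and 2 correlated at 0.156 between DMSO and TGF-β. With TGF-β+2APB they correlated at -0.479 for DMSO and -0.247 for TGF-β, and the crossed block exchanged the replicate numbers of TGF-β+2APB. These values do not settle whether the libraries are paired, and no shared source is stated. With the replicate block, 1343 genes, 1 member and 1 receptor partner were called in TGF-β+2APB against TGF-β, and 4739 and 6357 genes in the contrasts of TGF-β and TGF-β+2APB with DMSO, with 5 members each. Crossed, the block gave 5706, 2465 and 7232 genes for TGF-β against DMSO, TGF-β+2APB against TGF-β and TGF-β+2APB against DMSO. The members called were 5, 4 and 5 in the same order.

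With each library left out, a lone library is assumed to vary like the other groups. Called genes then ran from 2753 (without DMSO replicate 1) to 7640 with TGF-β, from 834 (without DMSO replicate 2) to 5405 (without TGF-β replicate 2) between TGF-β+2APB and TGF-β, and from 4354 to 9006 for TGF-β+2APB against DMSO, and the members called from 4 to 5, 1 to 5 and 4 to 6. The log2 fold change with TGF-β ran from -0.092 to 0.252 for Orai1 and from -0.049 to 0.165 for Stim1. Between TGF-β+2APB and TGF-β it ran from -0.339 to 0.012 for Orai1, from -0.004 to 0.059 for Orai2 and from -0.217 to 0.09 for Orai3, and for Orai1 against DMSO from -0.182 to 0.015. Scaling moved the median of all genes to -0.068 at most. The cause of these changes was not tested. Which gene of a family had the higher level per kb depended on the length used, as given with the levels.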

Other observations

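Some pathway genes lay under the filter on low counts in the fit of all 6 libraries and entered no comparison there. Itpka, the IP3 kinase best known from neurons, had 51.1 and 53.8 normalized counts under DMSO, 1.95 and 6.23 under TGF-β, and 0 and 1.97 under TGF-β+2APB. Without TGF-β+2APB replicate 2, Itpka passed the filter through its DMSO counts, with a log2 fold change of -3.64 for TGF-β against DMSO. It was chosen after its values were seen. Ryr2 ran from 5.85 to 11.8 and Ryr3 from 3.93 to 13.8 over the 6 libraries. Lrmp, a lymphoid membrane protein that binds IP3 receptors, passed the filter and ran from 3.96 to 13.6 in 5 libraries but stood at 86.9 in TGF-β+2APB replicate 2, the library with the high immune markers, and was not called. Ptprc there was 742.3, against 35.7 in replicate 1.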
